A study of Homo sapiens with 24 samples.

Results

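The glycolysis and hypoxia response genes were 40 genes chosen by name out of 24817 gene symbols on the array. These genes were picked without a rule on measured values, though with earlier results of these data known. They comprised 17 glycolytic enzymes, 3 transporters of glucose or lactate, 3 regulators of glycolytic flux, 15 other targets of the hypoxia-inducible factors (HIFs) and the 2 HIF alpha subunits HIF1A and EPAS1. Their probes were found through the RefSeq transcript given for each probe. This gave 50 probes for 38 members, whereas no probe was matched to ALDOA or EGLN3, for which no value is given. All 38 had at least 1 probe that passed the filter on dim probes, and 37 of them were well above background on all 24 arrays with their brightest probe. The exception was ALDOC. A member is represented by its brightest probe, and its other probes are given where they differ.

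U251 cells, an established human glioblastoma line, were exposed to G-1, an agonist of the G protein-coupled estrogen receptor GPER, or to its vehicle DMSO, and their RNA was hybridized to 1-colour microarrays. Cells received DMSO, a dose of G-1 named IC50 (an inhibitory concentration measured beforehand) or a dose of 1 µM. Each was applied for 24 h or 72 h, which makes 6 groups, with 4 cultures per group that the methods call independent. The labels give DMSO at 0.1%, whereas the methods name a lower share. An entry of the labels contradicts the duration in the sample titles for the IC50 group of 24 h and for the 1 µM group of 72 h, and the titles were used. All groups were the same cell line, so nothing below extends to other glioblastoma cells, and neither oxygen nor cell density is given in the labels.

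Glycolysis splits glucose into pyruvate, which lactate dehydrogenase can turn into lactate for export. HIF1A and EPAS1 encode the oxygen-labile alpha subunits of a transcription factor that is stabilized when oxygen-dependent prolyl hydroxylases are inactive. Most glycolytic enzymes and the glucose transporter SLC2A1 are known HIF targets, as are genes for blood vessel growth, pH control, mitophagy and collagen hydroxylation, and hypoxic regions with high levels of these transcripts are a hallmark of glioblastoma.

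Signals are log2 values over the array's own 75th percentile, so a level near 9 belongs to a very bright probe and a negative level to a dim probe, and levels of different probes are not comparable. A gene is said to have risen or fallen only when limma gave an adjusted p under 0.05 (Benjamini-Hochberg, over 22970 probes). The arrays lay on 3 slides of 8 arrays, and the third slide, read in a second scanning session, carried the 8 arrays of the 1 µM dose and no others, and there 38% to 40.7% of the spots were well above background, compared with 41.1% to 44.5% in the first session. Differences of G-1 1 µM from DMSO or G-1 IC50 therefore cannot be told apart from differences between slides or sessions, whereas the comparison of G-1 1 µM at 72 h with 24 h lies within the third slide. All 9 glioblastoma or astroglial markers (among them GFAP, NES and SOX2) and all 5 neuronal markers were above background on all 24 arrays, whereas PTPRC, AIF1, ITGAM, PECAM1, TEK, MAG and DCN, which mark leukocytes, endothelium, oligodendrocytes or fibroblasts, were above background on none. Other markers of those cells, CSF1R, MBP and COL1A2, were above background on all 24 arrays.

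At G-1 1 µM, glycolysis and hypoxia response genes were mostly higher than in DMSO at both durations, while the HIF1A transcript itself was lower. After 24 h, 21 of the 38 tested members rose (55.3%) and 2 fell, PFKM and HIF1A. Among all 14235 tested genes with a symbol, 20% rose and 10.5% fell in this comparison. After 72 h, again 21 members rose (55.3%) and 4 fell (PFKL, PFKM, HIF1A and EPAS1), beside 35.2% and 31% of all genes. The changes were modest. No member passed an absolute fold change of 2 after 24 h, and 2 did after 72 h (ADM and ALDOC), beside 1.69% and 12.3% of all genes. The median log2 change was 0.35 over the members and 0.036 over all genes after 24 h, and 0.33 and 0.026 after 72 h. The 4 arrays of G-1 1 µM lay above all 4 arrays of DMSO for 19 members after 24 h and for 23 after 72 h, beside 19.5% and 31.2% of all genes.

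The number of members called in either direction after 24 h, 23, depended on the processing. It was 9 with the 50th percentile in place of the 75th, and 15 without array 3 or without array 4 of DMSO 24 h, and 12 without array 1 of G-1 1 µM 24 h. Same-numbered arrays of these groups deviated together, which the main fit does not use. With the replicate number as a block more members were called, and that count is given in the closing section on processing. After 72 h, when 25 were called, dropping arrays in turn gave counts from 19 to 25.

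**Figure D1:**
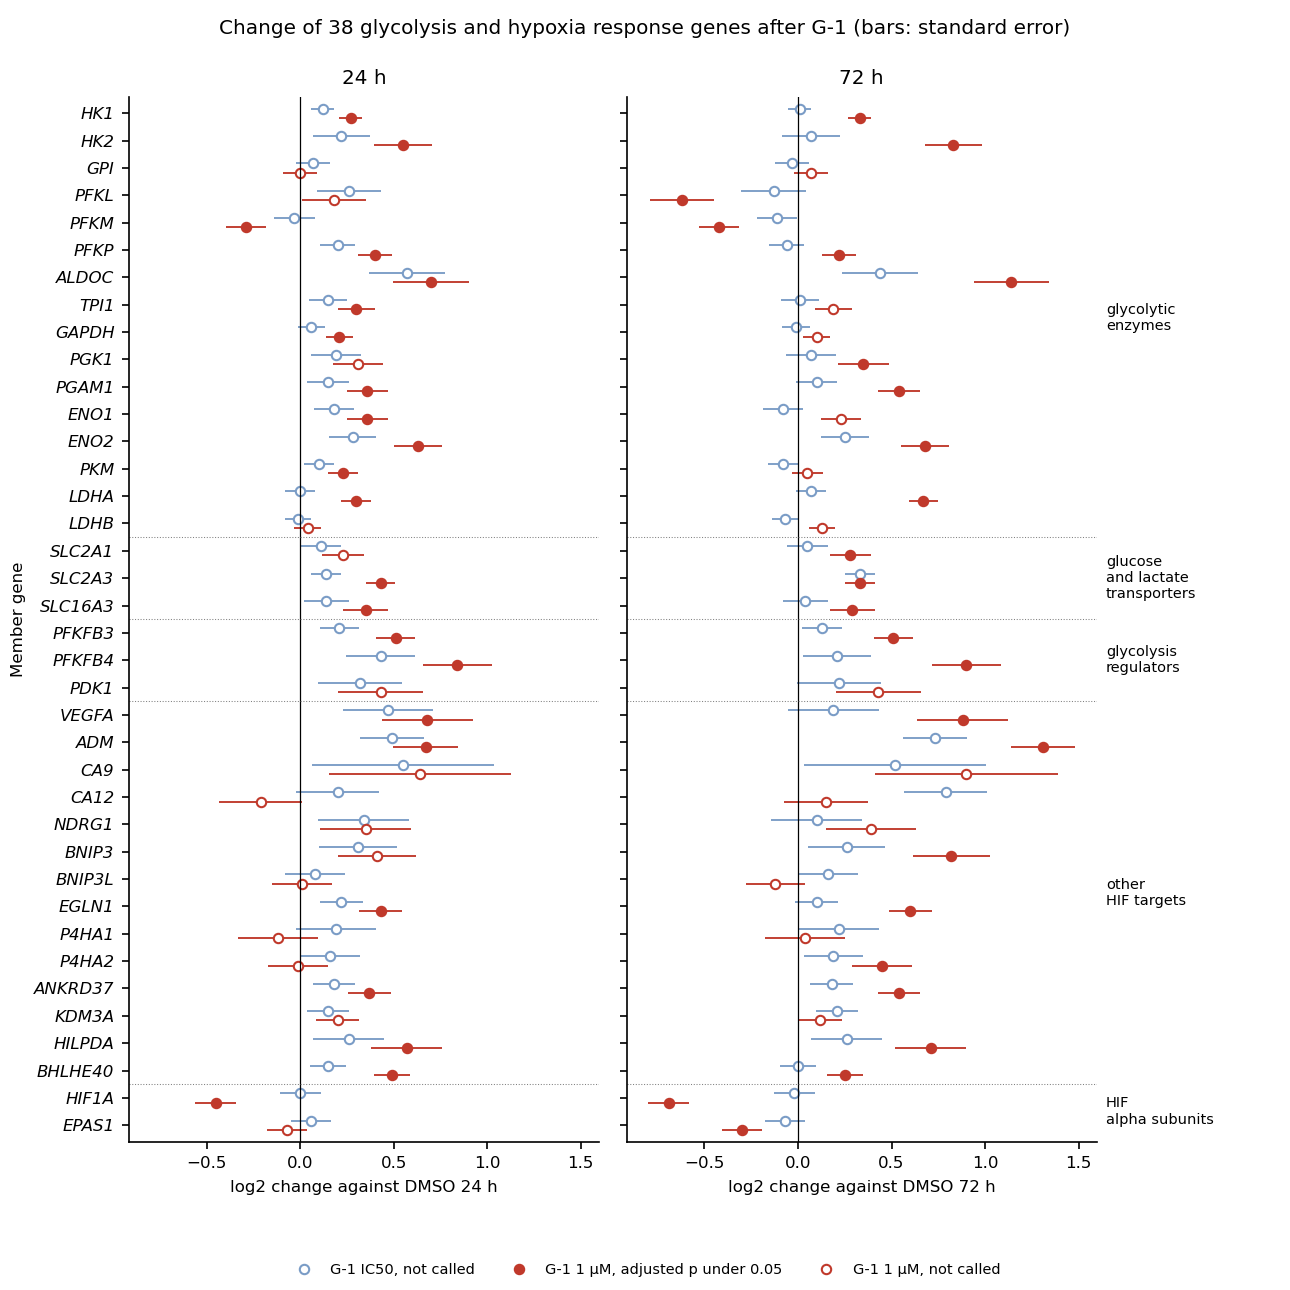
Log2 change (horizontal axis) of each of the 38 members, grouped by role, against DMSO of the same duration, for both doses of G-1 and both durations. Points are changes from the limma fit with 4 arrays per group, bars are standard errors, and filled points have an adjusted p below 0.05, which no member reached at G-1 IC50. Most of the members lie to the right of 0, and HIF1A and PFKM lie to the left at G-1 1 µM.

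A total of 17 members rose at both durations, and they were spread over several steps of the pathway: ALDOC, ENO2, HK1, HK2, LDHA, PFKP and PGAM1 among the enzymes, SLC2A3 and SLC16A3 among the transporters, PFKFB3 and PFKFB4 among the regulators, and ADM, ANKRD37, BHLHE40, EGLN1, HILPDA and VEGFA among the other HIF targets. ENO1, GAPDH, PKM and TPI1 passed the test after 24 h only, and BNIP3, P4HA2, PGK1 and SLC2A1 after 72 h only, but the difference between the durations was not significant for any of these 8 with its brightest probe. BNIP3L, CA12, CA9, GPI, KDM3A, LDHB, NDRG1, P4HA1 and PDK1 were called at neither duration.

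Glucose enters the cell through SLC2A1 and SLC2A3, and lactate leaves it through the monocarboxylate transporter SLC16A3. SLC2A3 was the most clearly changed of the 3 after 24 h. Its level was -0.17, -0.27, -0.34 and -0.35 in DMSO 24 h and 0.12, 0.20, 0.24 and 0.07 in G-1 1 µM 24 h, so that the groups did not overlap (log2 change 0.43, SE 0.0795, adjusted p = 0.000587). After 72 h its change was 0.33 (adjusted p = 0.00105). A second, dimmer SLC2A3 probe had a change of 0.40 after 24 h (adjusted p = 0.194) and rose by 0.65 after 72 h (adjusted p = 0.0189). SLC2A1, the main glucose transporter of most tumour cells, had a change of 0.23 after 24 h (adjusted p = 0.124) and rose by 0.28 after 72 h (adjusted p = 0.0299), when its arrays read 5.48, 5.36, 5.36 and 5.22 in DMSO and 5.83, 5.53, 5.56 and 5.63 in G-1 1 µM. SLC16A3 rose by 0.35 and 0.29.

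The hexokinases, which trap glucose as glucose 6-phosphate, both rose. HK2, the inducible isoform, read 2.22, 2.36, 1.93 and 2.07 in DMSO 24 h and 2.99, 2.85, 2.51 and 2.43 in G-1 1 µM 24 h, a log2 change of 0.55 (SE 0.153, adjusted p = 0.0108). In DMSO 72 h it read 2.55, 2.70, 2.34 and 2.18, and in G-1 1 µM 72 h 3.38, 3.34, 3.13 and 3.24, a change of 0.83 (SE 0.153, adjusted p = 8.73e-05). All 4 treated arrays lay above all 4 vehicle arrays at both durations. A second HK2 probe was too dim to be tested. HK1, the constitutive isoform, rose by 0.27 and 0.33, with SDs of at most 0.10 between the arrays of these groups. GPI, which isomerizes glucose 6-phosphate, had a change that rounded to 0 after 24 h and of 0.07 after 72 h, and passed the test at neither duration.

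The 3 phosphofructokinase genes, which encode the subunits of the committed step, moved apart. PFKP, the platelet isoform, rose by 0.40 after 24 h and 0.22 after 72 h, and its second probe by 0.38 and 0.40. PFKM, the muscle isoform, read 5.38, 5.30, 5.19 and 5.43 in DMSO 72 h and 4.93, 4.83, 4.90 and 4.94 in G-1 1 µM 72 h, and fell by 0.42 (SE 0.107, adjusted p = 0.00166), after a fall by 0.29 at 24 h (adjusted p = 0.0462) that did not pass without any of 5 of the 8 arrays (adjusted p up to 0.164). PFKL, the liver isoform, read 4.48, 4.52, 4.32 and 4.60 in DMSO 72 h and 3.33, 4.26, 4.08 and 3.76 in G-1 1 µM 72 h. The groups did not overlap, and PFKL fell by 0.62 (SE 0.172, adjusted p = 0.0035). The treated arrays were widely spread (SD 0.41), and without array 1, the lowest, the change was -0.45 (adjusted p at most 0.0197 over all arrays left out). After 24 h PFKL had a change of 0.18 (adjusted p = 0.449).

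Of the tested enzymes that act after phosphofructokinase, ALDOC, the aldolase isoform typical of brain, changed most, from a low level. It read -3.05, -2.78, -3.28 and -2.98 in DMSO 72 h and -2.32, -1.77, -1.69 and -1.72 in G-1 1 µM 72 h, a 2.21-fold rise (log2 change 1.14, SE 0.202, adjusted p = 5.14e-05), and it rose by 0.70 after 24 h (adjusted p = 0.0132). The ALDOC probe was well above background on 20 of the 24 arrays. Its DMSO 72 h levels lay near the lowest signals above background on those arrays, -3.543 to -3.107, so the size of the rise is uncertain. ENO2, the neuronal enolase, rose by 0.63 (SE 0.128, adjusted p = 0.00133) and 0.68 (SE 0.128, adjusted p = 0.00011), and its 4 treated arrays lay above the 4 vehicle arrays at both durations. PGAM1, the phosphoglycerate mutase, rose by 0.36 and 0.54, with 0.46 and 0.71 on its second probe.

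GAPDH, PKM, TPI1 and ENO1 passed the test after 24 h and not after 72 h, with small changes. The levels of GAPDH, the glyceraldehyde 3-phosphate dehydrogenase that is often used as a reference gene, were 9.26, 9.12, 9.04 and 9.10 in DMSO 24 h and 9.46, 9.30, 9.27 and 9.35 in G-1 1 µM 24 h, a rise by 0.21 (SE 0.0734, adjusted p = 0.0325). After 72 h its change was 0.10 (adjusted p = 0.232). PKM, which makes pyruvate, rose by 0.23 after 24 h (adjusted p = 0.0388) and had a change of 0.05 after 72 h (adjusted p = 0.593). TPI1, the triose phosphate isomerase, rose by 0.30 and ENO1, the ubiquitous enolase, by 0.36 after 24 h, with changes of 0.19 and 0.23 after 72 h. PGK1, the first ATP-forming enzyme, had a change of 0.31 after 24 h (adjusted p = 0.0833) and rose by 0.35 after 72 h (adjusted p = 0.0257). The calls of PKM, GAPDH and TPI1 were lost without certain arrays of the comparison, with adjusted p values up to 0.118, 0.108 and 0.111. Many of these enzymes have processed pseudogenes, and whether a probe also binds their transcripts was not tested.

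LDHA, the lactate dehydrogenase subunit that favours lactate formation, was among the clearest changes. In DMSO 72 h it read 2.63, 2.95, 2.80 and 2.86, and in G-1 1 µM 72 h 3.57, 3.46, 3.43 and 3.48. The groups were far apart relative to their spread, with a log2 change of 0.67 (SE 0.0788, adjusted p = 3.18e-07). Its second probe rose by 0.86 (SE 0.0993, adjusted p = 2.69e-07). After 24 h LDHA rose by 0.30 (SE 0.0788, adjusted p = 0.00825), while its second probe had a change of 0.23 (adjusted p = 0.0903). LDHB, the subunit of the heart-type enzyme, had changes of 0.04 and 0.13 and passed the test at neither duration.

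Of the regulators, PFKFB3 and PFKFB4 encode bifunctional enzymes that make and break the sugar bisphosphate that activates phosphofructokinase, and PDK1 encodes a kinase that holds back pyruvate dehydrogenase. PFKFB4 read 4.32, 4.01, 3.95 and 3.95 in DMSO 24 h and 5.17, 5.10, 4.76 and 4.53 in G-1 1 µM 24 h, the largest change of any member at that time (log2 change 0.84, SE 0.183, adjusted p = 0.00229). After 72 h the vehicle arrays read 4.60, 4.60, 4.13 and 4.26 and the treated arrays 5.21, 5.56, 5.21 and 5.19 (log2 change 0.90, SE 0.183, adjusted p = 0.000246). The groups did not overlap at either time. PFKFB3 rose by 0.51 at both durations, and its second, dimmer probe by 0.62 and 0.58. PDK1 had a change of 0.43 at both durations (adjusted p = 0.153 and 0.0992), with SDs between the arrays of up to 0.42.

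**Figure D2:**
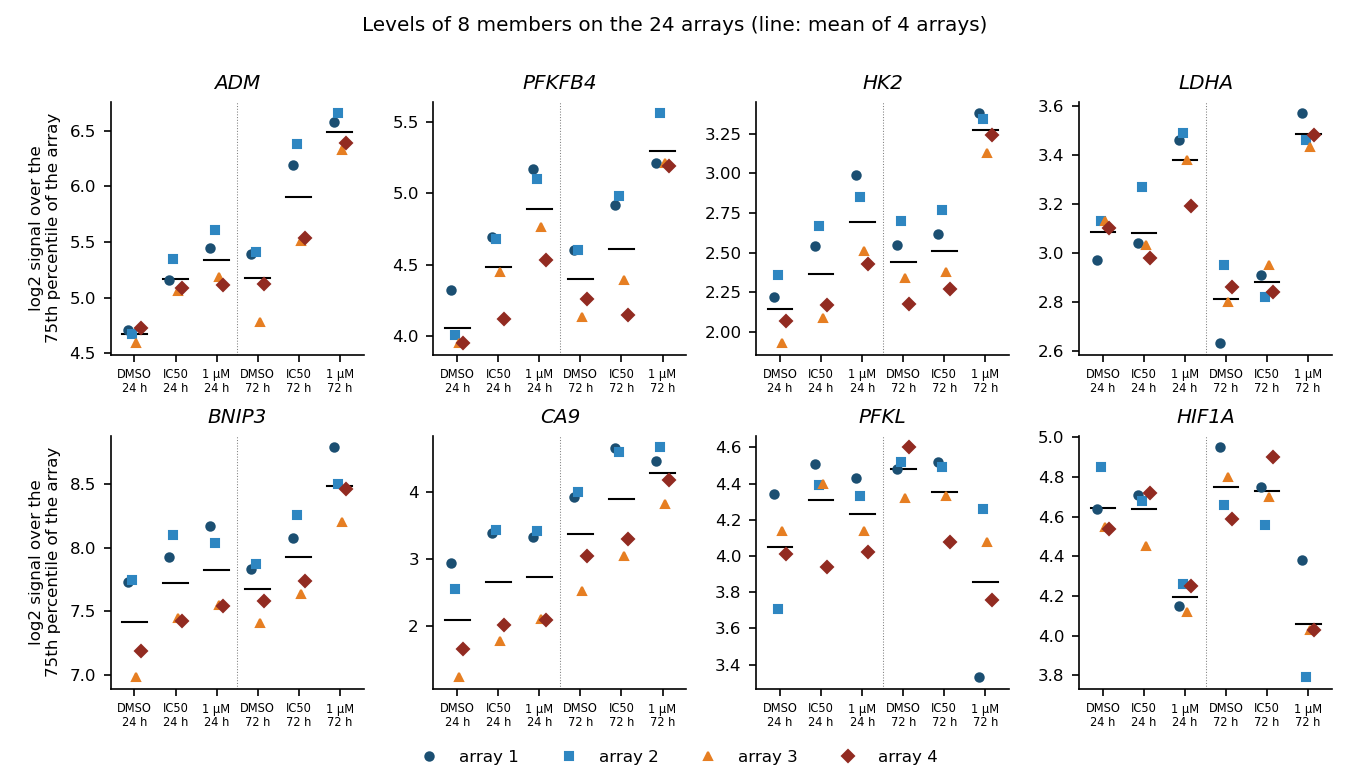
Level of 8 members on each of the 24 arrays (vertical axis, log2 signal over the 75th percentile of the array; horizontal axis, the 6 groups). Symbols mark the array number within a group and lines the mean of 4 arrays. The ADM, HK2, LDHA and PFKFB4 arrays of G-1 1 µM 72 h lie above those of DMSO 72 h, those of HIF1A and PFKL lie below, and CA9 and BNIP3 are higher on arrays 1 and 2 than on arrays 3 and 4 in every group.

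Among the other HIF targets, 6 of 14 tested rose after 24 h and 8 of 14 after 72 h, and none fell. The shares over all genes were 20% risen and 10.5% fallen after 24 h, and 35.2% and 31% after 72 h. ADM, which encodes the vasodilator peptide adrenomedullin, was the member with the largest change. It read 4.71, 4.67, 4.59 and 4.73 in DMSO 24 h and 5.45, 5.61, 5.19 and 5.11 in G-1 1 µM 24 h (log2 change 0.67, SE 0.171, adjusted p = 0.0068). It read 5.39, 5.41, 4.78 and 5.12 in DMSO 72 h and 6.58, 6.66, 6.33 and 6.39 in G-1 1 µM 72 h (log2 change 1.31, 2.49-fold, SE 0.171, adjusted p = 1.29e-06). No array of G-1 1 µM overlapped with DMSO of the same duration.

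VEGFA, the vascular endothelial growth factor, read 2.73, 2.61, 2.29 and 2.29 in DMSO 24 h and 3.56, 3.35, 2.86 and 2.86 in G-1 1 µM 24 h, and rose by 0.68 (SE 0.242, adjusted p = 0.0388) and, after 72 h, by 0.88 (SE 0.242, adjusted p = 0.00327). A second VEGFA probe, far dimmer, differed in sign, with changes of -1.40 (adjusted p = 0.073) and -0.47 (adjusted p = 0.485) and SDs of up to 0.97, and the mean of both probes had a change of -0.36 at 24 h. BNIP3, a mitophagy receptor of the mitochondrial outer membrane, read 7.83, 7.87, 7.41 and 7.58 in DMSO 72 h and 8.79, 8.50, 8.20 and 8.46 in G-1 1 µM 72 h, and rose by 0.82 (SE 0.207, adjusted p = 0.00175). Its change after 24 h was 0.41 (adjusted p = 0.138).

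HILPDA, a lipid droplet protein that inhibits lipolysis, rose by 0.57 and 0.71. EGLN1, the prolyl hydroxylase that marks HIF alpha subunits for degradation and is itself induced by HIF, rose by 0.43 and 0.60. ANKRD37, an ankyrin repeat protein, rose by 0.37 and 0.54, and BHLHE40, a transcriptional repressor, by 0.49 and 0.25. P4HA2, a collagen prolyl hydroxylase subunit, had a change of -0.01 after 24 h and rose by 0.45 after 72 h, and its other probes rose by 0.91 and 0.60 after 72 h.

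The HIF targets that were not called include CA9, which is used as a hypoxia marker. CA9, the carbonic anhydrase that acidifies the surroundings of hypoxic cells, read 2.94, 2.56, 1.24 and 1.66 in DMSO 24 h and 3.32, 3.41, 2.11 and 2.10 in G-1 1 µM 24 h. The groups overlapped, and the change of 0.64 had an SE of 0.487 (adjusted p = 0.34, 95% interval -0.38 to 1.65). This fit does not pair arrays by number, although same-numbered arrays of these groups deviated together. Each CA9 array of G-1 1 µM 24 h read above the same-numbered array of DMSO 24 h. After 72 h the change of CA9 was 0.90 (adjusted p = 0.109, 95% interval -0.11 to 1.92), so an increase past 2-fold lies within the interval. NDRG1, a stress-responsive gene, had changes of 0.35 and 0.39. CA12, another carbonic anhydrase, had changes of -0.21 and 0.15, KDM3A, a histone demethylase, of 0.20 and 0.12, and P4HA1, the other collagen prolyl hydroxylase subunit, of -0.12 and 0.04. BNIP3L, a paralog of BNIP3, had changes of 0.01 and -0.12, although its dimmer probe rose by 0.44 after 72 h.

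The genes of the oxygen-regulated factor itself went down or did not pass. HIF1A read 4.64, 4.85, 4.55 and 4.54 in DMSO 24 h and 4.15, 4.26, 4.12 and 4.25 in G-1 1 µM 24 h, and fell by 0.45 (SE 0.11, adjusted p = 0.00507). It read 4.95, 4.66, 4.80 and 4.59 in DMSO 72 h and 4.38, 3.79, 4.03 and 4.03 in G-1 1 µM 72 h, and fell by 0.69 (SE 0.11, adjusted p = 1.51e-05). The groups did not overlap at either time. A dimmer HIF1A probe, which varied with an SD of up to 0.70 in these groups, had changes of -0.45 and 0.30 and was called at neither (adjusted p = 0.307 and 0.422). EPAS1, which encodes HIF-2 alpha, had a change of -0.07 after 24 h (adjusted p = 0.664) and fell by 0.30 after 72 h (adjusted p = 0.0191), with overlapping groups. The arrays measure transcripts, and HIF alpha subunits are known to be set mainly by protein stability, which was not measured here.

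Of the partners and inhibitors of HIF, 11 of 12 listed genes were tested. After 24 h 3 rose and 1 fell, and after 72 h 4 rose and 2 fell, shares near those of all genes for the rises (20% after 24 h and 35.2% after 72 h). ARNT2, a dimerization partner of HIF alpha subunits, fell by 0.35 and 0.89, whereas EGLN2, a prolyl hydroxylase, rose by 0.51 and 0.42, HIF1AN, the asparaginyl hydroxylase that blocks coactivator binding, by 0.26 and 0.47, and the coactivator gene EP300 by 0.52 after 72 h.

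The promoters of some members are shown because HIF binds DNA through a short core, ACGTG or GCGTG. RefSeq windows on GRCh38.p14 were found for 35 of the 40 members, and none for SLC2A3, VEGFA, NDRG1, BNIP3L and HILPDA. The 250 bases before each start were searched for ACGTG and GCGTG and, for the other strand, CACGT and CACGC, with overlapping matches joined. At least 1 match was held by 38 of the 63 windows of members (60.3%), by 10 of 12 windows of the other HIF targets (83.3%) and by 19 of 37 windows of the glycolytic enzymes (51.4%), compared with 43.2% of all 35114 windows. Counted by gene, 29 of the 35 members held a match in at least 1 window. The share of all genes counted this way was not computed, so this count cannot be set against the 43.2% of windows. Several windows belonged to 12 members, and HK1 and PFKM had 7 each, with at most 1 match in any. The shares of windows therefore do not compare the lists gene by gene. The sequences below are those of ADM (the largest rise), BNIP3 (the window with the most matches among members), HK2 and LDHA (enzymes that rose, with several matches) and PFKL (an enzyme that fell). They run 5′ to 3′ on the strand of the gene, and capitals mark the matched letters.
ADM: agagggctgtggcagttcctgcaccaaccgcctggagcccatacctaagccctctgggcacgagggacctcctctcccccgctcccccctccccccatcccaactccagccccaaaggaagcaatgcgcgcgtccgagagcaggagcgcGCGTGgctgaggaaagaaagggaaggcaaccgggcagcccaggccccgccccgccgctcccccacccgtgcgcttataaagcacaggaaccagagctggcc
BNIP3: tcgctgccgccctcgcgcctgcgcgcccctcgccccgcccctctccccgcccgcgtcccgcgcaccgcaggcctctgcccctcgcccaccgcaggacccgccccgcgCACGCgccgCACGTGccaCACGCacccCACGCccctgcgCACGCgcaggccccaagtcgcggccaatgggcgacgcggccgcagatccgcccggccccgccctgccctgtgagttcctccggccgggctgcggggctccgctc
HK2: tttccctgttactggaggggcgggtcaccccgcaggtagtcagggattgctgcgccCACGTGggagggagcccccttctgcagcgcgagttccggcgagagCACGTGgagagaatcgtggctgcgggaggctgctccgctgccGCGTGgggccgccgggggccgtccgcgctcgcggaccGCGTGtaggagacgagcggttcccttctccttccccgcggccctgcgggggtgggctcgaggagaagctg
LDHA: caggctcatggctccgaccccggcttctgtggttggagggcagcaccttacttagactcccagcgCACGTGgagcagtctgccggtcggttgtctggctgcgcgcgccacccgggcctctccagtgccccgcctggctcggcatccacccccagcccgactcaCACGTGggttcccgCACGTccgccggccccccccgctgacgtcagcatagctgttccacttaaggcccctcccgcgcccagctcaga
PFKL: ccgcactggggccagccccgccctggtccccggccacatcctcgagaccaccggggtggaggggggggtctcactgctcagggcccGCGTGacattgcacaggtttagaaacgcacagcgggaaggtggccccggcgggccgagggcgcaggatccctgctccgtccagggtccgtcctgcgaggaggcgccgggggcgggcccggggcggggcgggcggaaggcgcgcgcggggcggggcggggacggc
The windows are chr11:10304823-10305072 (plus strand) for ADM, chr10:131981924-131982173 (minus strand) for BNIP3, chr2:74834920-74835169 (plus strand) for HK2, chr11:18394313-18394562 (plus strand) for LDHA and chr21:44299803-44300052 (plus strand) for PFKL. Counted from the start as negative positions, BNIP3 held 5 matches from -143 to -104, HK2 held 4 from -194 to -70, and LDHA held 3, at -185, -87 and -73. HK2 and LDHA had 2 windows each, of which 1 is shown. The window not shown held 3 matches for HK2 and 1 for LDHA. ADM held 1 match, at -101, and PFKL also held 1, at -164, so members that moved in opposite directions both carried the letters. The windows of PGAM1, PKM, SLC2A1 and P4HA2, which rose at G-1 1 µM after at least 1 of the durations, held no match, and neither did that of LDHB. A match describes the letters of the window and does not show that HIF binds there.

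Glycolytic enzymes and other HIF targets were set side by side. At the 1 µM dose, 11 of 16 tested enzymes rose and 1 fell after 24 h, with a median log2 change of 0.30, and 6 of 14 other HIF targets rose, with a median of 0.39. After 72 h, 8 of 16 enzymes rose and 2 fell, with a median of 0.23, and 8 of 14 other HIF targets rose and none fell, with a median of 0.50. Of all genes, 20% rose and 10.5% fell after 24 h, and 35.2% rose and 31% fell after 72 h. On the individual arrays of G-1 1 µM 72 h, the median difference from the DMSO mean was 0.26, 0.33, 0.17 and 0.19 over the enzymes and 0.63, 0.60, 0.38 and 0.36 over the other HIF targets. The other HIF targets were higher than the enzymes on each of these 4 arrays. At 24 h the enzymes read 0.43, 0.39, 0.20 and 0.19 and the other HIF targets 0.61, 0.47, 0.13 and 0.14, so that the order held on arrays 1 and 2 only. With the 50th percentile, the medians after 72 h were 0.15 for the enzymes and 0.42 for the other HIF targets.

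**Figure D3:**
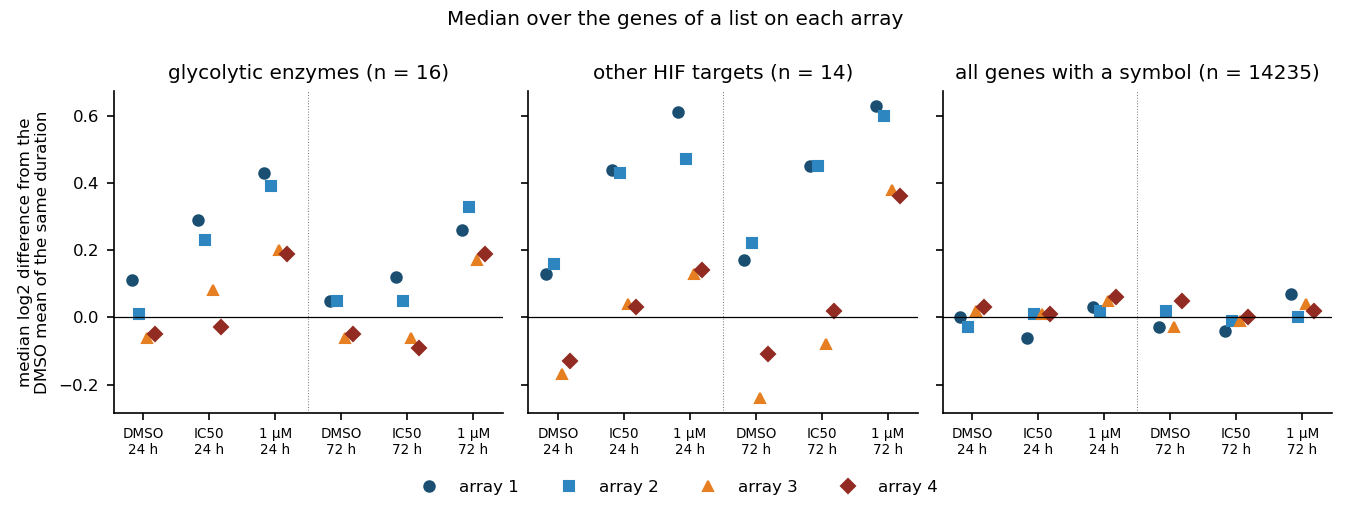
Median over the genes of a list of the log2 difference from the DMSO mean of the same duration (vertical axis), on each of the 24 arrays in 6 groups (horizontal axis), for 16 glycolytic enzymes, 14 other HIF targets and 14235 genes with a symbol. Symbols mark the array number. In every group, arrays 1 and 2 lie above arrays 3 and 4 for the other HIF targets, while the medians over all genes stay between -0.06 and 0.07.

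In every group, treated or not, arrays 1 and 2 read higher than arrays 3 and 4 for many members. This was noticed after the values were seen, and it is given as a description without a test. Over the 14 other HIF targets, the median difference from the DMSO 24 h mean was 0.13, 0.16, -0.17 and -0.13 on arrays 1 to 4 of DMSO 24 h itself. For CA9, arrays 1 and 2 read 3.92 and 3.99 and arrays 3 and 4 read 2.53 and 3.04 in DMSO 72 h, and 4.65, 4.59, 3.05 and 3.29 in G-1 IC50 72 h. These differences between cultures under the same treatment exceed the change of CA9 with G-1 at either dose.

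In all 6 groups, both arrays 1 and 2 lay above both arrays 3 and 4 for 12 of the 38 members (31.6%) and for 0.871% of all genes. The 12 were HK2, PGK1, PGAM1, ENO2, VEGFA, CA9, NDRG1, BNIP3, BNIP3L, P4HA2, ANKRD37 and HILPDA. Within a group, the count of such members was between 20 (G-1 1 µM 72 h) and 28 (G-1 IC50 72 h), beside 13.8% to 18.7% of all genes. The 8 arrays of G-1 1 µM share a slide, so the slide does not separate the numbers there. Whether the array number stands for a shared culture day is not given in the labels.

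**Figure D4:**
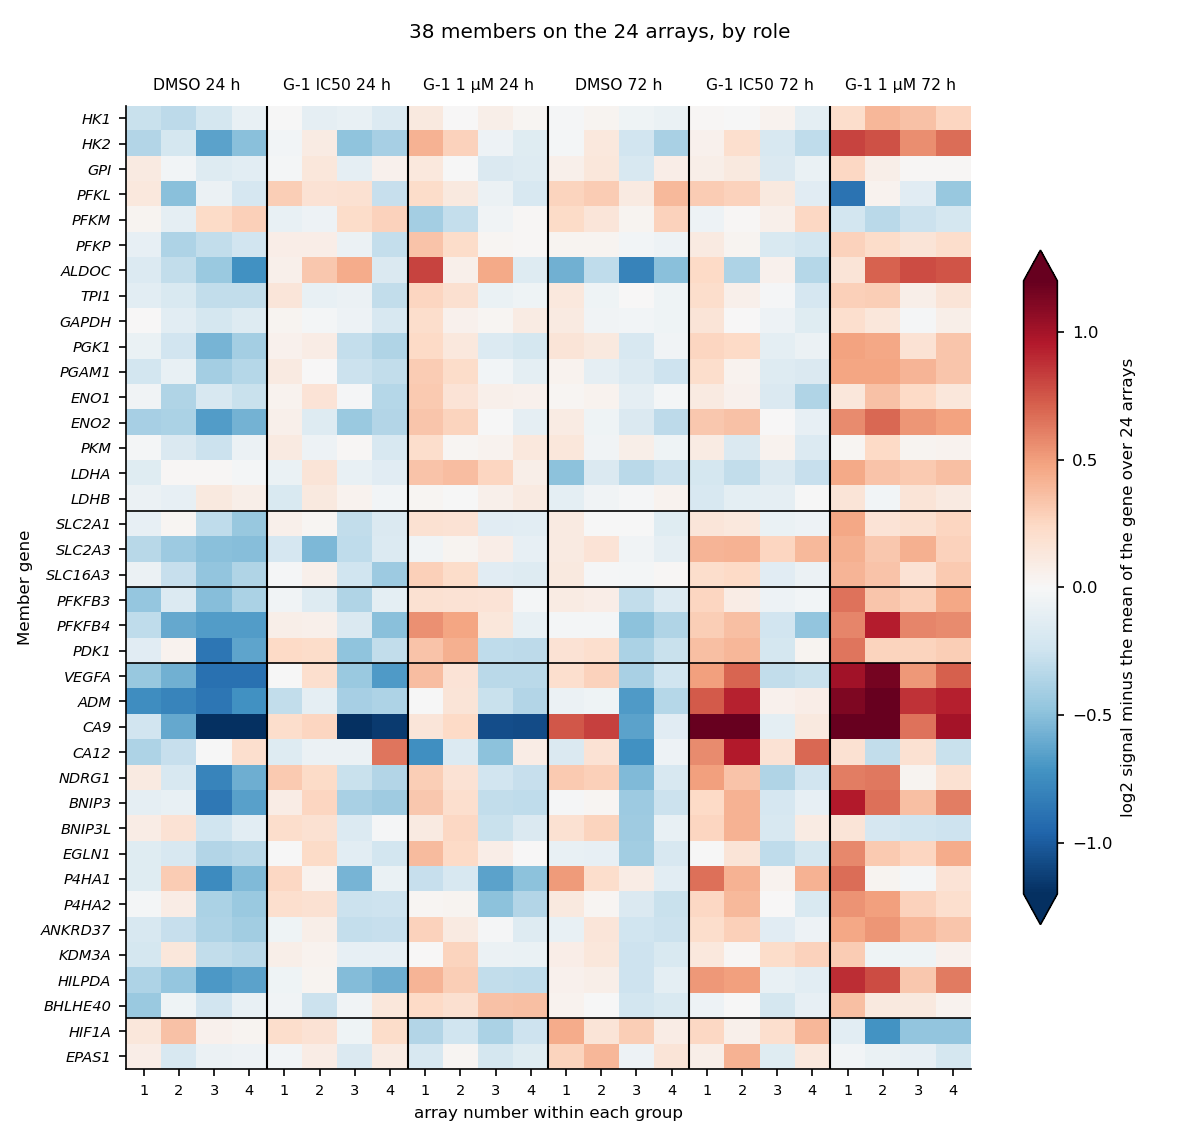
Each cell is the log2 signal of a member (rows, grouped by role) on 1 of the 24 arrays (columns, numbered within each group), minus the mean of that gene over the 24 arrays, with colours limited to 1.2 on either side. CA9, NDRG1, BNIP3 and HILPDA are higher on arrays 1 and 2 of each group, and HK2, ADM and VEGFA are highest in G-1 1 µM 72 h.

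At G-1 IC50, no member was called at either duration by limma, or by the methods' t-test after adjustment, beside 0.246% of all genes called after 24 h and 0.906% after 72 h. At an unadjusted p below 0.05, 5 members passed after 24 h and 4 after 72 h, beside 4.64% and 9.62% of all genes. Although none was called, 34 of the 38 members (89.5%) had a log2 change above 0 after 24 h and 27 (71.1%) after 72 h, compared with 44.5% and 44.2% of all genes, and the medians were 0.18 and 0.10. ADM was nearest to the threshold. In G-1 IC50 72 h it read 6.19, 6.38, 5.51 and 5.54, above all 4 arrays of DMSO 72 h (log2 change 0.73, SE 0.171, adjusted p = 0.0519). SLC2A3 read 0.57, 0.58, 0.42 and 0.55, again above all 4 vehicle arrays (log2 change 0.33, SE 0.0795, adjusted p = 0.0562). CA12 had the largest change, 0.79 (adjusted p = 0.139), and ALDOC had changes of 0.57 and 0.44.

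At this dose HIF1A and LDHA had changes that rounded to 0 after 24 h, and of -0.02 and 0.07 after 72 h. HK2 had changes of 0.22 and 0.07, and PKM of 0.10 and -0.08. DMSO and G-1 IC50 arrays shared slides 1 and 2, and the slide as a block left no member called. Within slide 1 the median over the members was 0.22 at both durations, and within slide 2 it was 0.11 after 24 h and 0.06 after 72 h, on 1 to 3 arrays of each group. Array numbers were not balanced within the slides. At 72 h, for example, slide 1 held array 2 of G-1 IC50 and arrays 2 and 4 of DMSO. Because arrays 1 and 2 read higher for many members, these medians mix the dose with the array number.

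Both doses were compared with the same vehicle arrays, so their changes are not independent. The doses were then compared with each other. After 24 h, 4 members were higher at G-1 1 µM than at G-1 IC50 (BHLHE40 by 0.34, LDHA by 0.30, PFKFB3 by 0.30 and SLC2A3 by 0.29) and HIF1A was lower by 0.44 (log2 change -0.44), beside 18.2% of all genes higher and 8.32% lower. Dimmer probes of SLC2A3 (-0.01, adjusted p = 0.987), HIF1A (-0.05, adjusted p = 0.928), LDHA (0.19, adjusted p = 0.153) and PFKFB3 (0.35, adjusted p = 0.168) were not called. Same-numbered arrays of G-1 1 µM 24 h and G-1 IC50 24 h deviated together, and with the replicate number as a block 16 members were called, 13 higher and 3 lower. After 72 h, 18 members were higher and 4 lower (PFKL, PFKM, CA12 and HIF1A), beside 35.9% and 29.3% of all genes. HK2 was 0.76 higher (SE 0.153, adjusted p = 0.000235) and LDHA 0.60 higher (SE 0.0788, adjusted p = 1.44e-06), with no overlap between the arrays of the doses. ALDOC was 0.71, PFKFB4 0.69 and ADM 0.59 higher. VEGFA was 0.69 higher with its brightest probe, but the mean of its probes had a change of -0.30 (adjusted p = 0.428). CA12 had a change of -0.64 (adjusted p = 0.0164) and HIF1A of -0.67 (adjusted p = 2.41e-05). SLC2A1 had a change of 0.24 (adjusted p = 0.0692), PKM of 0.13 (adjusted p = 0.175) and CA9 of 0.38 (adjusted p = 0.506).

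The number of members called in each direction between the doses moved with the scaling. With the 50th percentile, the median of all genes moved by -0.17 at 24 h and by -0.16 at 72 h, and the split was 0 higher and 2 lower at 24 h and 6 higher and 6 lower at 72 h. Relative to the median of all genes, 28 members at 24 h and 29 at 72 h lay above it under both percentiles. After normexp background correction, the split was 1 and 2 at 24 h and 13 and 6 at 72 h. It was 3 and 2, and 13 and 5, after quantile normalization.

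The change at G-1 1 µM differed between the durations for 3 members, by the interaction of treatment and duration in limma, in which a constant offset between sessions cancels. It was 0.37 larger after 72 h for LDHA (SE 0.111, adjusted p = 0.0143) and 0.65 larger for ADM (SE 0.242, adjusted p = 0.0469), and 0.80 smaller for PFKL (log2 difference -0.80, SE 0.243, adjusted p = 0.0157). Of all genes, 34.1% were called. The difference for ADM lost its call without 12 of the 16 arrays, dropped in turn (adjusted p up to 0.107). With the 50th percentile PFKL was the member still called (adjusted p = 0.0777 for LDHA and 0.0714 for ADM), and without the filter on dim probes none was (adjusted p = 0.0737 for LDHA, 0.054 for PFKL and 0.142 for ADM). For LDHA, the DMSO arrays were 0.27 lower at 72 h than at 24 h (adjusted p = 0.0654), while the G-1 1 µM arrays read 3.46, 3.49, 3.38 and 3.19 at 24 h and 3.57, 3.46, 3.43 and 3.48 at 72 h. At G-1 IC50 the change differed between the durations for 0 members by limma, and 0 had an unadjusted p below 0.05, beside 0.014% and 4.23% of all genes.

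Members were also compared between the durations. In DMSO alone, 34 of 38 members (89.5%) were above 0 at 72 h relative to 24 h, with a median of 0.22, compared with 43.8% of all genes and a median of -0.026. SLC2A3 alone passed the test, with a rise by 0.48 (SE 0.0795, adjusted p = 0.00244), beside 1.29% of all genes that rose, and 0 members passed with the 50th percentile. The second SLC2A3 probe had a change of 0.34 (adjusted p = 0.465). CA9 had the largest change, 1.27 (SE 0.487, adjusted p = 0.17), followed by VEGFA (0.67) and ADM (0.50). Within the third slide, 15 members rose from 24 h to 72 h of G-1 1 µM and none fell, beside 18.9% and 24.3% of all genes. CA9 rose by 1.54 (2.91-fold, SE 0.487, adjusted p = 0.0158), from 3.32, 3.41, 2.11 and 2.10 to 4.45, 4.66, 3.82 and 4.17, and ADM by 1.15 (adjusted p = 1.95e-05). VEGFA rose by 0.87, BNIP3 by 0.66, HILPDA by 0.63, P4HA1 by 0.62, P4HA2 by 0.58 and HK2 by 0.57. The longer culture is part of this difference, and the interaction above is the test of what G-1 1 µM added to it. At G-1 IC50, ADM rose by 0.74 and SLC2A3 by 0.67 over the same time, beside 1.43% of all genes that rose. The second SLC2A3 probe had a change of 0.53 there (adjusted p = 0.256).

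Genes around the pathway were counted by list, to be read against the 20% of all genes that rose and the 10.5% that fell at G-1 1 µM after 24 h, and the 35.2% and 31% after 72 h. Of 28 further glycolysis genes, 18 were tested, and after 72 h of G-1 1 µM 6 rose and 6 fell, with a median of 0.05, which is close to the shares of all genes. HKDC1, a hexokinase-like gene, rose by 1.28 (adjusted p = 6.18e-08). SLC2A10, a further sugar transporter, fell by 1.30. SLC2A12, another, was also lower (adjusted p = 0.00231), but 1 of the 4 arrays of G-1 1 µM 72 h read it above background, so the size of its change is not given. PGAM2, the muscle phosphoglycerate mutase, was not well above background on any array of G-1 1 µM 72 h and was at least 3.27-fold lower there than in DMSO 72 h, measured against the lowest signal above background (adjusted p = 2.86e-09). Its counterpart PGAM1 rose, as described above.

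Of 10 genes of pyruvate dehydrogenase and its control, which turn pyruvate into acetyl-CoA in the mitochondria, none was called by limma after 24 h, when 1 had an unadjusted p below 0.05, and 4 rose and 3 fell after 72 h, close to the 35.2% and 31% of all genes. The kinase genes moved apart. PDK4 rose by 1.45 (adjusted p = 1.07e-05), PDK2 fell by 1.37 (adjusted p = 5.94e-11), and PDK3 fell by 0.71. PDP1, an opposing phosphatase, rose by 0.57. PDK4 also rose by 1.82 at G-1 IC50 72 h (3.53-fold, adjusted p = 0.000149), where no member was called. Of 7 genes of the pentose phosphate pathway, which branches off at glucose 6-phosphate, 2 rose (RPE by 0.76 and RPIA by 0.30) and 3 fell after 72 h, among them TKT by 0.75 and PGLS by 0.52.

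Of 32 further HIF targets, 31 were tested, and 10 rose and 2 fell after 24 h and 17 rose and 3 fell after 72 h, with medians of 0.24 and 0.43, beside 20% and 10.5% of all genes after 24 h and 35.2% and 31% after 72 h. Those that rose after 72 h included ANGPTL4, an inhibitor of lipoprotein lipase that is also a target of the PPAR nuclear receptors, PLAUR (by 2.32) and LOX (by 1.51). ANGPTL4 was not above background on any array of DMSO 24 h and was at least 24.5-fold higher in G-1 1 µM 24 h (adjusted p = 2.32e-06). PLAUR encodes the urokinase receptor and LOX a collagen cross-linking enzyme. These genes also respond to other factors, and none of the 38 tested members changed by as much as PLAUR.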

How the data were processed

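RNA of 24 cultures was measured on 1-colour arrays. The authors deposited a scanner output per array, of which the processed signal intensity (background-subtracted by Feature Extraction; version 10.7.3.1 per the labels and 12.1.1.1 per the file headers) was used, and a table of normalized log2 values, whose values the authors scaled to the 75th percentile and centred on the median of each probe. Outlier spots were dropped, spots of a probe averaged, and log2 intensities reduced by the array's own 75th percentile. A probe was tested if the 4 arrays of some group all read it well above background, which held for 22970 of 58118 probes, in limma 3.58.1 (R 4.3.3), with 6 group means fitted over 24 arrays and Benjamini-Hochberg adjustment over the probes. The number of arrays limits the precision. The fit was tested on simulated data. Replicates correlated at 0.99 to 0.996, and no spot was saturated.

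Genes were named through the transcript accessions of the probes and RefSeq. Members and lists were chosen with earlier results of these data known. The text names, in each comparison, members past 2-fold and the 6 largest called changes per direction among glycolytic genes and other HIF targets; HIF1A, EPAS1, HK2, PKM, LDHA, SLC2A1, VEGFA and CA9 always; and up to 4 called genes of each further list. A gene of the further HIF targets that this rule names is not reported here. Same-numbered arrays deviated together (correlations 0.17 to 0.28 between G-1 1 µM 24 h and DMSO 24 h, and 0.2 to 0.31 between G-1 1 µM 24 h and G-1 IC50 24 h), and in the other comparisons not in every pair. Alternatives were other scalings, background correction, probe filters, an intensity trend, slide and replicate blocks, other probe summaries, the methods' t-test and leaving out each array.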

Additional observations from a re-analysis of the deposited data

Results flagged for a closer look

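The change at G-1 1 µM relative to DMSO differed between 24 h and 72 h for 5 probes of 4 members, by the limma interaction. It differed by -0.80 for PFKL, by 0.37 and 0.63 for the 2 probes of LDHA, by 0.65 for ADM and by 0.58 for a dimmer probe of P4HA2, all on the log2 scale. For PFKL it ranged from -0.94 to -0.63 as arrays were dropped in turn.

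In 9 of 228 groups of 4 arrays, 1 array stood apart from the others, and chance flags about 1 in 20 such groups. In G-1 1 µM 72 h, array 1 was lowest for ALDOC (-2.32) and highest for PDK1 (4.09) and BNIP3L (5.25), and array 2 was highest for PKM (9.56) and PFKFB4 (5.56). PFKFB3 was lowest on array 4 of G-1 1 µM 24 h (4.46), and GAPDH was highest on array 1 of DMSO 72 h (9.36). In G-1 IC50 24 h, CA12 was highest on array 4 (-0.28) and HIF1A lowest on array 3 (4.45).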

How the results depend on the processing

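The number of members called at G-1 1 µM 72 h (25) stayed within 1.5 times under all alternatives, and at 24 h (23) it was 15 with quantile normalization, 9 with the 50th percentile, 11 with normexp background and 11 with the methods' t-test. Of the 2 members past 2-fold at 72 h, 1 was left with normexp or with probes detected on all arrays. Between the doses, 5 members at 24 h became 2 (50th percentile), 3 (normexp, compared arrays only or mean of probes) and 1 (t-test), and 22 at 72 h became 12 (50th percentile). The 3 members whose change differed between durations became 1 (50th percentile) and 0 (no filter on dim probes). For DMSO over time, 1 became 0 (50th percentile, compared arrays only, t-test) and 2 (slide block). At G-1 IC50 72 h, 0 became 1 (quantile, 50th percentile, normexp, intensity trend, mean of probes) and 2 (probes detected on all arrays). The median of the enzymes at 72 h was 0.15 with the 50th percentile. With the mean of its probes, VEGFA reversed to -0.36 (G-1 1 µM 24 h against DMSO) and -0.30 (between doses at 72 h). The deposited log2 table changed no call of a named member. The causes were not tested.

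With the replicate number as a block, 16 members were called between the doses at 24 h (also with the block within each duration), 6 differed between durations, 14 were called in DMSO over time, and 2 at G-1 IC50 at either duration (3 with the block within each duration, chosen after seeing the data). At G-1 1 µM the block gave 29 and 30. Outside the pairs named in the processing, arrays share only a number.

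Without single arrays, the counts ranged from 0 to 2 at G-1 IC50 72 h (2 without array 2 of DMSO 72 h), 12 to 23 at G-1 1 µM 24 h, 19 to 25 at G-1 1 µM 72 h, 3 to 8 and 17 to 23 between the doses, and 2 to 3 for the difference between durations. The count between the doses at 24 h was 8 without array 4 of G-1 1 µM 24 h and 3 without array 2 of G-1 IC50 24 h. Arrays limit low signals: ALDOC was not above background throughout.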
